A study of Mus musculus with 6 samples.

Results

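*Cd177* and 8 genes that neutrophils are known for, *S100a8*, *S100a9*, *Csf3r*, *Cxcr2*, *Mpo*, *Elane*, *Itgam* and *Trem1*, were followed in the colon epithelium of mice with and without the zinc finger gene *Zfp90* in that epithelium. These are 9 of the 52550 genes listed in each sample. They were chosen by their measured values in the comparison of the genotypes, as a gene that lay far above the rest of a group it is usually counted with. Their levels and their differences between the genotypes are therefore given as descriptions, without a test.

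The 6 samples were 3 from Zfp90fl/fl mice (the Control samples), whose *Zfp90* alleles were flanked by loxP sites, and 3 from Zfp90ΔIEC mice (the cKO samples), whose floxed alleles were removed by Cre recombinase under the Villin promoter, which is active in intestinal epithelial cells. The genotypes were littermates. All mice were C57BL/6 males of 6 to 8 weeks, and both genotypes had the same treatment for colitis-associated tumors. They received 10 mg/kg azoxymethane (AOM), a carcinogen, by intraperitoneal injection and, 5 days later, 3 cycles of 2% dextran sulfate sodium (DSS), which injures the colon, for 7 days followed by 14 days of plain water. No untreated mice are among the samples. The mice were euthanized on day 80. Cells of the colon epithelium were shaken off in EDTA and DTT and were not sorted, so that leukocytes lying in the epithelium could be carried along. The genotypes were caged apart after weaning, and cage and genotype cannot be told apart. Nothing in the labels says more of the replicates than that they are separate samples.

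CD177 is a glycoprotein anchored in the outer membrane of neutrophils, where it binds the protease proteinase 3 and sits next to the integrin CD11b/CD18, and it also binds PECAM1 on endothelial cells. It is best known as a neutrophil antigen whose transcript goes up in the blood when neutrophil production is stimulated, and it is also found on some epithelial cells. Neutrophils are short-lived granulocytes that enter the inflamed colon along gradients of chemokines. A mature neutrophil carries large amounts of the calprotectin transcripts *S100a8* and *S100a9* and of surface receptors, whereas the transcripts of the azurophil granule enzymes *Mpo* and *Elane* belong to its precursors in bone marrow.

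Depth was alike in the 6 samples, at 25.7 to 28.7 M fragments as estimated from the steps between low values, and 22304 to 22735 genes were listed above 0 in a sample. This estimate is rough, since 50.7% to 56.5% of the low values used for it lay within 0.1 of a whole number of fragments. *Zfp90* itself was at 0.490 to 0.630 FPKM (fragments per kilobase of transcript and M mapped fragments) in the Zfp90fl/fl samples and at 0.0846 to 0.195 FPKM in the Zfp90ΔIEC samples. The epithelial origin of the RNA showed in 10 epithelial markers, which summed to 7260 to 8191 FPKM in the Zfp90fl/fl samples and to 7023 to 7719 FPKM in the Zfp90ΔIEC samples. FPKM is scaled to transcript length, and levels of different genes are compared here on that scale.

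*Cd177* was the only one of the 9 genes expressed at a high level, and it was lower in the Zfp90ΔIEC mice. Its level was 107, 99.3 and 87.8 FPKM in the Zfp90fl/fl samples and 46.4, 28.4 and 45.4 FPKM in the Zfp90ΔIEC samples. The genotypes did not overlap, and Zfp90ΔIEC replicate 2 was the lowest of all 6 samples. The means were 97.9 ± 9.46 FPKM (SD, n = 3 mice) against 40.1 ± 10.1 FPKM (SD, n = 3), a ratio of means of 2.44, and the log2 fold change on the scale of log2(FPKM + 1) was -1.30. Ranked from the highest gene of a sample down, *Cd177* stood at places 361, 403 and 457 in the Zfp90fl/fl samples and at places 933, 1562 and 979 in the Zfp90ΔIEC samples. It thus lay within the top 2.03% of the genes above 0 in each Zfp90fl/fl sample and within the top 6.97% in each Zfp90ΔIEC sample. The level corresponded to about 6721 to 7574 fragments in a Zfp90fl/fl sample and to about 2212 to 3438 in a Zfp90ΔIEC sample, counted over the longest transcript of 2714 bases, so that counting error is small beside the spread between mice.

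*Cd177* (ENSMUSG00000052212) lies on the minus strand of chromosome 7 of GRCm38, from 24743983 to 24760311. No annotated gene shares exon bases with it. Of the 31-base words of its longest transcript, 7.25% also occur in transcripts of other genes, most of them in the neighbouring *Gm4763*, which was listed at 0 in all 6 samples.

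**Figure D1:**
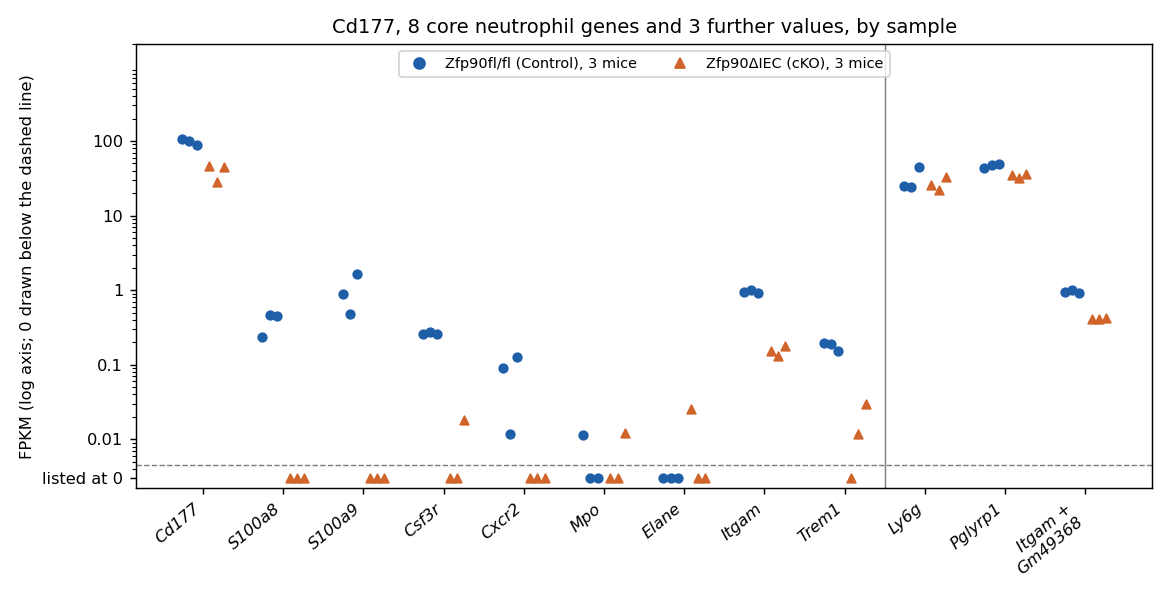
FPKM of *Cd177* and the 8 core neutrophil genes in each sample on a log axis, with *Ly6g*, *Pglyrp1* and the sum of *Itgam* and the overlapping *Gm49368* to the right of the vertical line. Circles are Zfp90fl/fl mice and triangles Zfp90ΔIEC mice, and values listed at 0 are drawn below the dashed line. *Cd177* lies between 28.4 and 107 FPKM in every sample, while the 8 core genes lie below 2 FPKM.

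None of the 8 core neutrophil genes reached 2 FPKM in any sample. Across the 9 genes, 7 were lower in every Zfp90ΔIEC sample than in any Zfp90fl/fl sample. Among all 27805 genes above 0 in at least 1 sample, 8.88% had this pattern. The 9 genes were chosen with this comparison known, so their count is a description only. Only *Cd177* passed the filter of 1 FPKM in at least 3 samples that was used for the test across genes, and 7 of the 9 genes had a value of 0 in some sample. In bulk RNA, fewer cells of a type and less RNA per cell cannot be told apart.

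*S100a8* and *S100a9* encode the chains of calprotectin, the most abundant protein of the neutrophil cytosol and the protein measured in stool as a sign of intestinal inflammation. *S100a8* was at 0.236, 0.466 and 0.451 FPKM in the Zfp90fl/fl samples and was listed at 0 in the 3 Zfp90ΔIEC samples. *S100a9* was at 0.881, 0.476 and 1.62 FPKM in the Zfp90fl/fl samples and was also listed at 0 in the 3 Zfp90ΔIEC samples. Both genes were therefore seen in the Zfp90fl/fl mice and not in the Zfp90ΔIEC mice, but on very few fragments, about 3.02 to 6.52 for *S100a8* and 6.95 to 23.8 for *S100a9* in a Zfp90fl/fl sample. No ratio is given against a group listed at 0. Their order in the Zfp90fl/fl samples was not that of *Cd177*, which was highest in replicate 1, whereas *S100a8* was lowest there and *S100a9* was highest in replicate 3.

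Of the receptors, *Csf3r* encodes the receptor for granulocyte colony-stimulating factor, which drives the production of neutrophils. It was at 0.260, 0.277 and 0.262 FPKM in the Zfp90fl/fl samples, the narrowest spread among the core genes relative to its mean (0.267 ± 0.00923 FPKM, SD, n = 3). In the Zfp90ΔIEC samples it was listed at 0, 0 and 0.0180 FPKM, the last on about 1.75 fragments. A pseudogene, *AC105061.2*, which was not in the files, holds 21.1% of the 31-base words of *Csf3r*.

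*Cxcr2*, the main chemokine receptor by which neutrophils follow CXCL1 and CXCL2, was at 0.0892, 0.0117 and 0.128 FPKM in the Zfp90fl/fl samples and was listed at 0 in the 3 Zfp90ΔIEC samples. Its value in Zfp90fl/fl replicate 2 corresponded to about 1 fragment (0.999), so the lack of overlap rests on that fragment. *Trem1*, a receptor that amplifies inflammatory signalling in neutrophils and monocytes, was at 0.194, 0.190 and 0.152 FPKM in the Zfp90fl/fl samples and at 0, 0.0116 and 0.0299 FPKM in the Zfp90ΔIEC samples. The genotypes were again apart, with at least about 12.9 fragments in a Zfp90fl/fl sample and at most about 2.50 in a Zfp90ΔIEC sample.

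The azurophil granule enzymes were close to absent in both genotypes. *Mpo*, which encodes myeloperoxidase, was at 0.0114 FPKM in Zfp90fl/fl replicate 1 and 0.0120 FPKM in Zfp90ΔIEC replicate 3 and was listed at 0 in the other 4 samples. *Elane*, which encodes neutrophil elastase, was at 0.0256 FPKM in Zfp90ΔIEC replicate 1 and was listed at 0 in the other 5 samples. These values correspond to less than 1 fragment each. A value this low cannot be told from 0 at this depth.

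*Itgam* encodes CD11b, the integrin chain that neutrophils share with monocytes, macrophages and some dendritic and NK cells. It was at 0.943, 1.01 and 0.928 FPKM in the Zfp90fl/fl samples and at 0.151, 0.132 and 0.180 FPKM in the Zfp90ΔIEC samples, without overlap. The means were 0.960 ± 0.0420 FPKM (SD, n = 3) against 0.154 ± 0.0242 FPKM (SD, n = 3), a ratio of 6.23.

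This value of *Itgam* is uncertain, because the annotated gene *Gm49368* on the same strand shares exons with it and holds 72.9% of its 31-base words. *Gm49368* went the other way, listed at 0 in the 3 Zfp90fl/fl samples and at 0.257, 0.277 and 0.246 FPKM in the Zfp90ΔIEC samples. Fragments from the shared exons can be given to either gene. The sum of the 2 genes was 0.960 ± 0.0420 FPKM (SD, n = 3) in the Zfp90fl/fl samples against 0.414 ± 0.0102 FPKM (SD, n = 3) in the Zfp90ΔIEC samples. It was still lower in every Zfp90ΔIEC sample, but the ratio of the means was 2.32 in place of 6.23. On the sum, *Itgam* and *Cd177* differed between the genotypes by ratios of 2.32 and 2.44. Whether fragments were divided in this way was not tested.

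Set against the other 8 genes together, *Cd177* was far higher in every sample, and the distance was larger in the Zfp90ΔIEC mice. The 8 genes summed to 2.61, 2.43 and 3.55 FPKM in the Zfp90fl/fl samples and to 0.176, 0.143 and 0.240 FPKM in the Zfp90ΔIEC samples. *Cd177* was 40.8, 40.9 and 24.8 times this sum in the Zfp90fl/fl samples and 264, 198 and 189 times in the Zfp90ΔIEC samples. The ratio was 35.5 ± 9.28 (SD, n = 3) in the Zfp90fl/fl mice and 217 ± 40.6 (SD, n = 3) in the Zfp90ΔIEC mice. With *Gm49368* counted with *Itgam*, an alternative chosen after the values were seen, the ratio in the Zfp90ΔIEC mice was 89.5 ± 20.1 (SD, n = 3), and its 3 samples, at 107, 67.6 and 93.5, remained above those of the Zfp90fl/fl mice. Since *S100a8*, *S100a9* and *Cxcr2* were listed at 0 in each Zfp90ΔIEC sample, the sum there was mostly *Itgam*.

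The direction reversed when *Ly6g* was among the neutrophil genes. *Ly6g* encodes the surface antigen by which neutrophils of mice are usually recognised. Against *Ly6g* alone, *Cd177* was 4.31, 4.15 and 1.96 times as high in the Zfp90fl/fl samples and 1.80, 1.30 and 1.38 times in the Zfp90ΔIEC samples. The ratio was 3.47 ± 1.31 (SD, n = 3) in the Zfp90fl/fl mice and 1.49 ± 0.271 (SD, n = 3) in the Zfp90ΔIEC mice, without overlap. With the sum of *Csf3r*, *Cxcr2*, *Mpo*, *Elane* and *Ly6g* as denominator, of which *Ly6g* made up at least 98.6% in each sample, the log2 difference of the ratio between the genotypes was -1.06, against 2.65 for the sum of the 8 core genes. With *Csf3r*, *Cxcr2*, *Mpo* and *Elane* alone, the ratio was 288 ± 59.7 (SD, n = 3) in the Zfp90fl/fl mice. It was 1815 and 1511 in Zfp90ΔIEC replicates 1 and 3, where that sum was 0.0256 and 0.0300 FPKM. In Zfp90ΔIEC replicate 2 the sum was 0. Among the denominators used, the presence of *Ly6g* therefore set the direction. Which cells the *Ly6g* fragments came from was not tested.

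**Figure D2:**
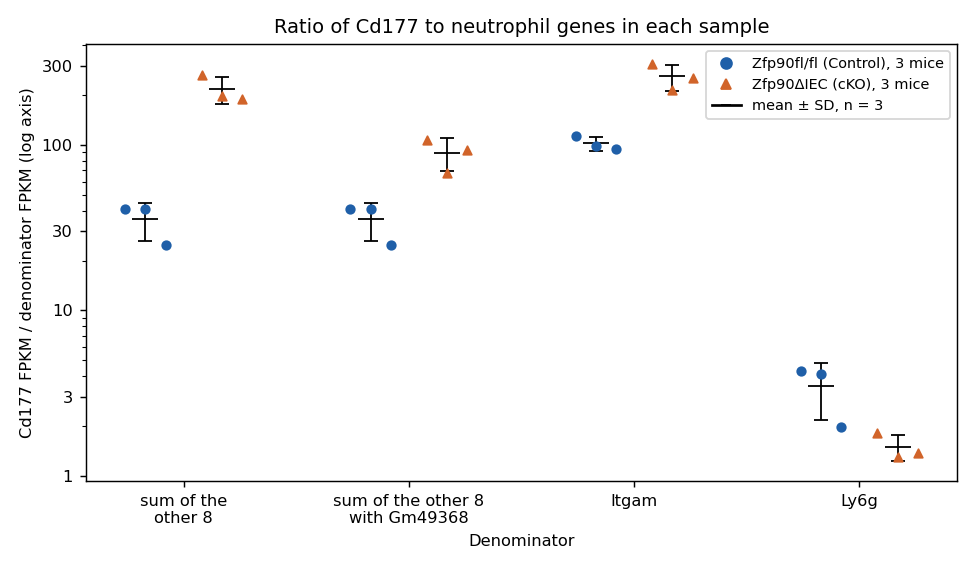
*Cd177* FPKM divided by the FPKM of 4 denominators in each sample, on a log axis, with the mean and SD of each genotype (n = 3) in black. The ratio is higher in the 3 Zfp90ΔIEC samples with the sum of the 8 core genes, with *Gm49368* added and with *Itgam*, and lower with *Ly6g*.

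A wider list of 40 neutrophil genes, 20 of surface and receptor proteins and 20 of granule and secreted proteins, was divided in the same way. Of the 40, 38 had a mean below 1 FPKM over the 6 samples, the highest of them at 0.467 FPKM, and 8 were listed at 0 in every sample, among them *Prtn3*, *Ctsg* and *Ngp*, which encode granule proteins, and the receptor *Cxcr1*. *Ly6g* and *Pglyrp1*, the latter encoding a peptidoglycan recognition protein of neutrophil granules that epithelial cells can also express, were the other 2.

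*Ly6g* was at 24.8, 23.9 and 44.7 FPKM in the Zfp90fl/fl samples and at 25.7, 21.9 and 32.9 FPKM in the Zfp90ΔIEC samples. The genotypes overlapped, and its log2 fold change of -0.17 (standard error 0.254) did not pass the test (limma, Benjamini-Hochberg adjusted p = 0.802). Replicate 3 was the highest sample of *Ly6g* in both genotypes, and not of *Cd177* in either. Of its 31-base words, 9.55% occur in other genes, and the gene that shares most of them, *Ly6i*, was at most at 0.0336 FPKM. *Pglyrp1* was at 43.7, 47.8 and 48.4 FPKM in the Zfp90fl/fl samples and at 34.5, 31.5 and 36.0 FPKM in the Zfp90ΔIEC samples. Its genotypes did not overlap, but its log2 fold change of -0.45 (standard error 0.0714) did not pass either (adjusted p = 0.0687 from limma). *Cd177*, *Ly6g* and *Pglyrp1* were thus the 3 of these 49 genes with a mean above 2 FPKM, and each had its own order of samples.

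Of the 40 genes, 11 had a mean of at least 0.1 FPKM, and 9 of the 11 were lower in every Zfp90ΔIEC sample, against 11.9% of all 17013 genes at that level. None of the 11 was higher in every Zfp90ΔIEC sample, against 8.05% of all genes. The mean for the limit of 0.1 FPKM was taken over both genotypes, so a gene could reach it through the Zfp90fl/fl samples. Some of the 9 had a mean below 0.1 FPKM in the Zfp90ΔIEC samples. The shares over all genes follow the same rule but cover genes of every level from 0.1 FPKM up. The median log2 ratio of mean FPKM was -1.23 for 7 surface and receptor genes and -0.99 for 4 granule and secreted genes, beside -0.03 over all genes at that level. In the fit across the 27805 genes above 0, in which 0.0539% of genes were called, 1 of the 40 genes passed and fell. This was *Ptafr*, the receptor for platelet-activating factor, at 0.250, 0.283 and 0.253 FPKM in the Zfp90fl/fl samples and at 0, 0.0288 and 0.00985 FPKM in the Zfp90ΔIEC samples (limma log2 fold change -0.32 with standard error 0.0214 and adjusted p = 0.0199). With a sample left out, *Ptafr* passed in 0 of 6 fits (adjusted p of 0.0732 to 0.131 from limma), and its adjusted p over 10 alternatives ran from 0.0200 to 0.246. The next highest genes of the lists were *Selplg*, which encodes the selectin ligand PSGL-1, at 0.469 ± 0.117 and 0.201 ± 0.0391 FPKM (SD, n = 3 each, adjusted p = 0.256 from limma), and *Il1r2*, the decoy receptor for IL-1, at 0.806 ± 0.0412 and 0.128 ± 0.109 FPKM (SD, n = 3 each, adjusted p = 0.114). *G0s2*, an inhibitor of lipolysis that neutrophils express, followed at 0.511 ± 0.122 and 0.273 ± 0.0564 FPKM (SD, n = 3 each, adjusted p = 0.342).

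The partners that CD177 is known to bind were low or absent. Only RNA was measured, and whether CD177 of the mouse binds each of them was not tested. *Prtn3*, which encodes proteinase 3, was listed at 0 in every sample. *Itgb2*, the CD18 chain that pairs with CD11b, was at 0.417 ± 0.133 FPKM (SD, n = 3) in the Zfp90fl/fl samples against 0.192 ± 0.0197 FPKM (SD, n = 3) in the Zfp90ΔIEC samples, without overlap, and did not pass the test (adjusted p = 0.337 from limma). *Pecam1*, an adhesion molecule of endothelium and leukocytes, was at 0.257 ± 0.0577 FPKM (SD, n = 3) against 0.458 ± 0.0357 FPKM (SD, n = 3), higher in each Zfp90ΔIEC sample, and did not pass (adjusted p = 0.249 from limma).

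The phagocyte oxidase, the enzyme complex of the oxidative burst, was lower in every Zfp90ΔIEC sample for 6 of 6 genes, none of which passed the test. Of all genes with a mean of at least 0.1 FPKM, 11.9% had this pattern. *Cyba*, whose product p22phox also serves oxidases of the epithelium, was at 35.2 ± 1.25 and 23.1 ± 3.69 FPKM (SD, n = 3 each, log2 fold change -0.60, adjusted p = 0.0872 from limma). *Cybb*, which encodes the catalytic chain of the phagocyte enzyme, was at most at 0.231 FPKM. Its mean in the Zfp90ΔIEC samples was 0.0365 FPKM, so it entered this count through the Zfp90fl/fl samples. *Rac2*, a small GTPase of the complex, was at 0.989 ± 0.193 and 0.417 ± 0.235 FPKM (SD, n = 3 each, adjusted p = 0.345 from limma).

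Transcription factors of the myeloid lineage gave no common direction. Of 4 genes of at least 0.1 FPKM, 1 was lower in every Zfp90ΔIEC sample and none higher, beside 11.9% and 8.05% of all genes. *Spi1*, which encodes PU.1, was at most at 0.184 FPKM, and *Cebpe*, needed for the late steps of neutrophil maturation, was listed at 0 in every sample. *Cebpa*, active in epithelium as well, was at 12.4 ± 0.580 and 12.3 ± 0.955 FPKM (SD, n = 3 each, adjusted p = 0.975 from limma). *Cebpd* was at 3.60 ± 0.127 and 2.91 ± 0.256 FPKM (SD, n = 3 each, adjusted p = 0.206) and *Cebpb* at 1.67 ± 0.276 and 1.85 ± 0.237 FPKM (SD, n = 3 each, adjusted p = 0.704).

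Among 14 genes of factors that attract neutrophils or raise their number, 1 passed the test with the filter, in which 0.199% of 11564 genes were called. *Il1b*, which encodes interleukin 1 beta, fell from 3.67, 4.19 and 3.08 FPKM in the Zfp90fl/fl samples to 0.199, 0.508 and 0.537 FPKM in the Zfp90ΔIEC samples (limma log2 fold change -1.72 with standard error 0.131 and adjusted p = 0.00823). It passed in 6 of 6 fits with a sample left out (adjusted p of 0.0148 to 0.0408 from limma). Each of these fits used the same 11564 genes, and *Il1b* met the filter through the Zfp90fl/fl samples alone. Without the filter its adjusted p was 0.0499 (limma). The chemokine *Cxcl1*, a ligand of CXCR2, was at 7.27 ± 2.07 and 8.19 ± 1.94 FPKM (SD, n = 3 each, adjusted p = 0.785), and *Tnf* was at 11.7 ± 0.536 and 12.8 ± 2.01 FPKM (SD, n = 3 each, adjusted p = 0.687). *Csf3*, which encodes the ligand of CSF3R, was at most at 0.0274 FPKM. Of 9 genes of this list with at least 0.1 FPKM, 5 were lower in every Zfp90ΔIEC sample, against 11.9% of all genes at that level. Some of the 5 had a mean below 0.1 FPKM in the Zfp90ΔIEC samples and entered the count through the Zfp90fl/fl samples.

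Summed markers of other leukocytes lay lower in the Zfp90ΔIEC samples as well. Of 10 markers of leukocytes in general, 9 were lower in every Zfp90ΔIEC sample, against 11.9% of all genes at 0.1 FPKM or more. The summed level of these markers was 10.2 to 12.1 FPKM in the Zfp90fl/fl samples and 4.53 to 6.72 FPKM in the Zfp90ΔIEC samples. The highest of them were *Lcp1*, which encodes an actin-bundling protein, the tetraspanin *Cd53*, and the lysosomal protein gene *Laptm5*, and none of the 10 passed the test (adjusted p = 0.130, 0.0664 and 0.0664 for these 3, from limma). The defining gene *Ptprc*, which encodes CD45, was at 0.540 to 0.812 FPKM in the Zfp90fl/fl samples and at 0.306 to 0.470 FPKM in the Zfp90ΔIEC samples. The pooled level of these 10 markers was therefore well below the level of *Cd177* alone in every sample.

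Markers of monocytes and macrophages were 12 genes led by *Lyz2*, *C1qa* and *Cd68*. They summed to 8.56 to 11.5 FPKM in the Zfp90fl/fl samples and 3.43 to 4.82 FPKM in the Zfp90ΔIEC samples. Of 8 with at least 0.1 FPKM, 5 were lower without overlap, against 11.9% of all genes at that level. Some of the 5 had a mean below 0.1 FPKM in the Zfp90ΔIEC samples. *Adgre1*, which encodes F4/80, was at most at 0.186 FPKM. For B and plasma cells the sums over 8 genes, led by *Igha* and *Jchain*, were 2.28 to 3.28 and 0.487 to 0.732 FPKM, and for T and NK cells, 12 genes led by *Gzma*, *Trac* and *Gzmb*, they were 5.36 to 15.4 and 4.36 to 5.92 FPKM, which overlapped. None of these genes passed the test, in which the smallest adjusted p was that of *Igha* (0.0545 from limma).

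Among 12 markers of eosinophils and mast cells, *Mcpt1* and *Mcpt2*, proteases of mucosal mast cells, passed the test and fell. *Mcpt1* went from 11.7, 13.7 and 8.46 FPKM to 0.698, 0.609 and 1.05 FPKM (limma log2 fold change -2.76 with standard error 0.172 and adjusted p = 0.00271). *Mcpt2* went from 5.58, 6.31 and 4.08 FPKM to 0.318, 0.215 and 0.330 FPKM (log2 fold change -2.28 with standard error 0.137 and adjusted p = 0.00271). Both passed in 6 of 6 fits with a sample left out. *Mcpt2* met the filter through the Zfp90fl/fl samples alone. *Mcpt1* reached 1 FPKM in the Zfp90fl/fl samples and, of the Zfp90ΔIEC samples, only in replicate 3, so it too depended on the Zfp90fl/fl samples. Without the filter the adjusted p was 0.0199 for each (limma). The 2 genes share 3.46% (of *Mcpt1*) and 3.30% (of *Mcpt2*) of their 31-base words with each other. *Kit*, the receptor for stem cell factor, was at 4.84 ± 0.372 and 5.54 ± 2.43 FPKM (SD, n = 3 each, adjusted p = 0.868), and *Epx*, which encodes eosinophil peroxidase, was at most at 0.0262 FPKM. The part of leukocyte RNA in the difference of *Cd177* was not tested.

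The 12 markers of fibroblasts, endothelium and muscle, led by *Vim*, *Pecam1* and *Dcn*, summed to 1.67 to 2.22 FPKM in the Zfp90fl/fl samples and to 1.53 to 2.52 FPKM in the Zfp90ΔIEC samples, so that the genotypes overlapped. Of the 10 general epithelial markers, led by *Krt8*, *Krt19* and *Lgals4*, 9 overlapped and 1, *Krt18*, was higher in every Zfp90ΔIEC sample (adjusted p = 0.240 from limma). Of all genes with a mean of at least 0.1 FPKM, 8.05% were higher in this way.

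**Figure D3:**
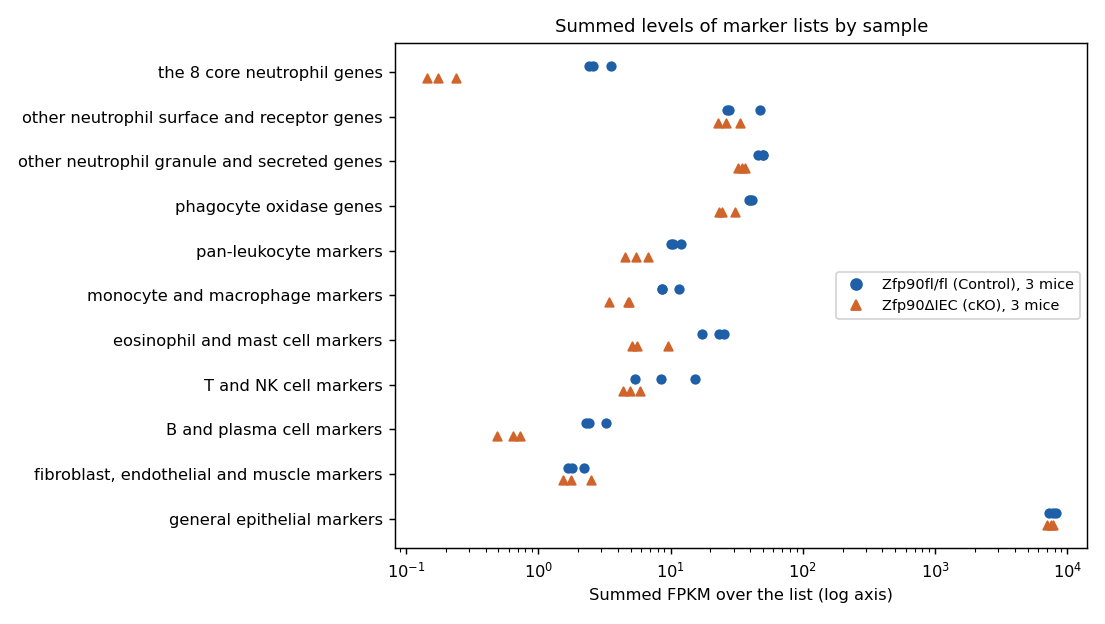
Summed FPKM of the 8 core neutrophil genes and of 10 marker lists in each sample, on a log axis. Circles are Zfp90fl/fl mice and triangles Zfp90ΔIEC mice. The sum of the 8 core genes lies below that of the pan-leukocyte markers in every sample, and the 2 neutrophil lists lie higher through *Ly6g* and *Pglyrp1*.

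The genes whose values over the 6 samples were most like those of *Cd177* were looked for among 6661 genes with a mean of at least 5 FPKM. Likeness was the root mean square difference between the 2 genes' log2(FPKM + 1), each centred on its own mean. Since it is computed over samples of both genotypes, it mostly picks genes with a similar difference between them, and it is given without a test. The nearest were *Ceacam10* (0.185), *Duox2* (0.259), *Trf* (0.298), *Cd14* (0.304) and *Irf1* (0.335). None of the 5 is a gene of neutrophils alone.

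*Ceacam10*, a secreted member of the carcinoembryonic antigen family, was at 41.6, 37.3 and 32.0 FPKM in the Zfp90fl/fl samples and at 23.6, 12.9 and 21.2 FPKM in the Zfp90ΔIEC samples. These values put the 6 samples in the same order as those of *Cd177*, with Zfp90fl/fl replicate 1 highest and Zfp90ΔIEC replicate 2 lowest. *Ceacam1*, the gene that shares most 31-base words with *Ceacam10*, was at 483 to 571 FPKM in the Zfp90fl/fl samples and at 461 to 563 FPKM in the Zfp90ΔIEC samples.

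*Duox2*, which encodes a hydrogen peroxide-producing oxidase of the mucosal surface, was at 22.5, 26.1 and 30.6 FPKM in the Zfp90fl/fl samples and at 9.80, 8.58 and 10.4 FPKM in the Zfp90ΔIEC samples. *Trf*, which encodes the iron carrier transferrin, was at 7.24 ± 0.855 and 3.78 ± 0.651 FPKM (SD, n = 3 each). The overlapping *Gm20425* shares 80.7% of the 31-base words of *Trf* but was at most at 0.0282 FPKM. *Cd14*, the co-receptor for bacterial lipopolysaccharide, was at 26.3 ± 1.54 and 14.2 ± 1.29 FPKM (SD, n = 3 each), and *Irf1*, a transcription factor induced by interferons, at 36.6 ± 4.47 and 20.4 ± 3.11 FPKM (SD, n = 3 each). All 5 were lower in every Zfp90ΔIEC sample, as the measure favours.

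**Figure D4:**
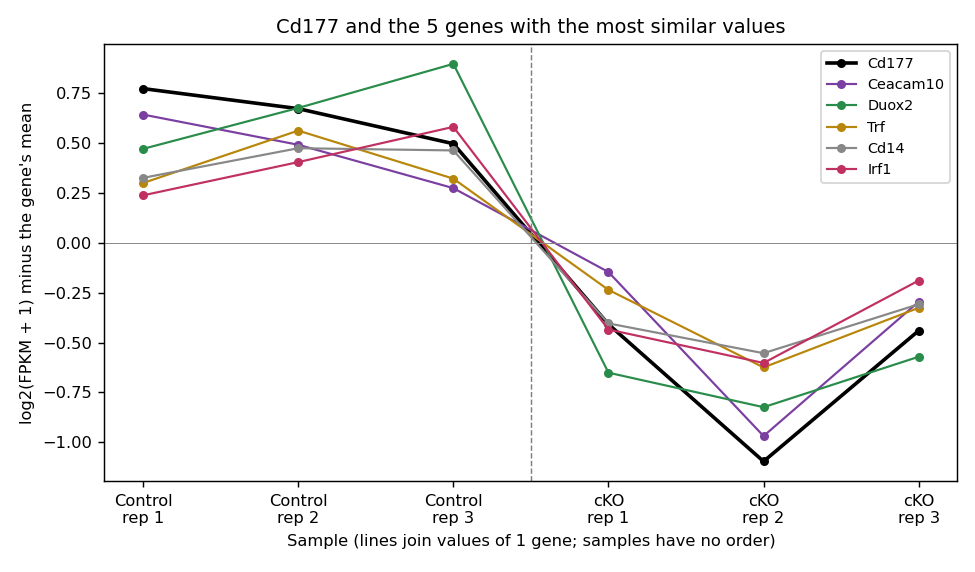
log2(FPKM + 1) minus the gene's own mean for *Cd177* (thick line) and the 5 genes with the most similar values, in the 6 samples. Lines join the values of 1 gene and the samples have no order. *Cd177* and *Ceacam10* are both highest in Zfp90fl/fl replicate 1 and lowest in Zfp90ΔIEC replicate 2.

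Genes that the epithelium switches on during inflammation and infection were taken as a list of 12, which includes *Duox2*. Of 10 with at least 0.1 FPKM, 8 were lower in every Zfp90ΔIEC sample, against 11.9% of all genes at that level. With the filter, 4 of the 12 passed the test and fell, where 0.199% of all genes tested were called. *Reg3b*, which encodes an antimicrobial lectin, was at 461, 1254 and 1802 FPKM in the Zfp90fl/fl samples and at 20.8, 44.7 and 58.5 FPKM in the Zfp90ΔIEC samples (limma log2 fold change -4.70 with standard error 0.557 and adjusted p = 0.0434). *Reg3g*, its close relative, was at 85.4, 164 and 244 FPKM and at 5.56, 14.5 and 11.9 FPKM (log2 fold change -3.79 with standard error 0.442 and adjusted p = 0.0434). The others were *Duox2* (log2 fold change -1.36 with standard error 0.119 and adjusted p = 0.0137) and *Nos2*, which encodes inducible nitric oxide synthase (-1.08, standard error 0.124, adjusted p = 0.0434). With a sample left out, *Duox2* passed in 5 of 6 fits, all but that without Zfp90fl/fl replicate 2 (adjusted p = 0.0510 from limma), *Reg3b* and *Reg3g* in 1 of 6, that without Zfp90fl/fl replicate 1 (adjusted p = 0.0235 and 0.0358), and *Nos2* in 0 of 6 (0.0507 to 0.134). In the fit without the filter none of the 4 passed (adjusted p = 0.123 for *Reg3b* and *Reg3g*, 0.0589 for *Duox2* and 0.114 for *Nos2*, from limma). *Nos2* met the filter through the Zfp90fl/fl samples alone. *Pigr*, the receptor that carries IgA across the epithelium, and *Dmbt1*, a mucosal scavenger protein, had log2 fold changes of -0.50 and -0.58 and did not pass (adjusted p = 0.0690 and 0.131 from limma). The list's median log2 ratio of mean FPKM was -1.68 over 10 genes.

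Lists of the differentiated and dividing epithelium did not share this direction. Their median log2 ratios of mean FPKM were 0.26 for goblet cells, 0.38 for surface colonocytes and 0.19 for crypt and cycling cells. No marker of goblet cells, surface colonocytes or crypt cells with at least 0.1 FPKM was lower in every Zfp90ΔIEC sample. Higher in every such sample were 3 of 10 goblet cell markers, the mucin *Muc2*, *Agr2* and *Zg16*, 4 of 10 colonocyte markers, with *Car1* and *Guca2a* but not *Ceacam1*, and 4 of 8 markers of crypt and cycling cells. Of all genes at that level, 8.05% had this pattern. In the crypt and cycling list the higher ones were the markers of dividing cells *Mki67*, *Top2a*, *Cdk1* and *Ccnb1*. Its other markers, *Lgr5*, *Ascl2*, *Smoc2* and *Axin2*, overlapped between the genotypes. Their log2 ratios were 0.01, 0.06, -0.05 and -0.38. Among the markers with a lower mean in the Zfp90ΔIEC samples were *Retnlb* of the goblet cell list and *Saa1* of the colonocyte list. Their log2 ratios of mean FPKM were -1.11 and -0.71, and their genotypes overlapped. Of the crypt and cycling markers, *Mki67*, a marker of dividing cells, passed the test. It rose from 22.6, 21.8 and 22.6 FPKM to 29.1, 30.2 and 30.6 FPKM (limma log2 fold change 0.41 with standard error 0.0512 and adjusted p = 0.0478). *Top2a* and *Smoc2* did not pass (adjusted p = 0.127 and 0.910 from limma). *Mki67* passed in 0 of 6 fits with a sample left out (adjusted p of 0.0641 to 0.163 from limma), nor did it pass without the filter (0.0577).

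*Ceacam10* is also the nearest expressed neighbour of *Cd177*. On chromosome 7 of GRCm38 it takes up bases 24777206 to 24784657 of the plus strand, so that the 2 genes point away from each other and their starts are 16.9 kb apart. Of 34 genes reaching within 250 kb of *Cd177*, 23 were protein-coding and 13 of those had a mean of at least 0.1 FPKM. *Ceacam10* and the ribosomal protein gene *Rps19* were the 2 that were lower in every Zfp90ΔIEC sample, with log2 ratios of mean FPKM of -0.94 and -0.13. *Zfp575* and *Grik5* were higher in every such sample, with log2 ratios of 1.67 and 0.37, *Zfp575* from at most 0.0690 FPKM. With 2 of 13 in each direction, these counts are near those over all genes at this level, 11.9% lower and 8.05% higher. The genes next to *Cd177* on the other side, *Gm4763* and *BC049730*, were listed at 0 in all 6 samples. *Rps19*, *Zfp575*, *Grik5* and the genes at 0 were named after their values were seen.

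**Figure D5:**
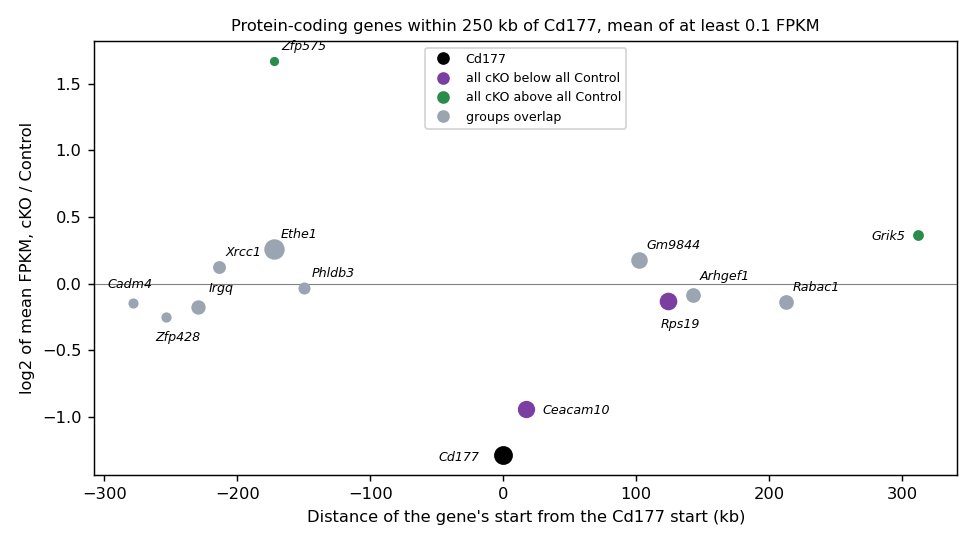
log2 ratio of mean FPKM (Zfp90ΔIEC over Zfp90fl/fl) of *Cd177* and 13 protein-coding neighbours with a mean of at least 0.1 FPKM, against the distance of each gene's start from that of *Cd177* in kb. Larger points have a higher mean level. *Cd177* is at -1.29 and *Ceacam10*, 16.9 kb away, at -0.94, and the other 12 lie between -0.25 and 1.67.

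The sequences before the starts of *Cd177* and *Ceacam10*, which lie side by side and share the order of the samples, are shown with those of *S100a8* and *S100a9*, the calprotectin genes that were at or near 0. Each is the 250 bases before the RefSeq start on GRCm38.p6, written 5′ to 3′ on the gene's own strand. Capitals mark matches, on either strand, to GGAAGT, the core of a site for ETS factors such as PU.1, to TTGCNNAA, a site of C/EBP factors where N is any base, and to TATAAA, the TATA box. The motifs and the genes shown were chosen after the values were seen.
*Cd177*, chr7:24760312-24760561, minus strand: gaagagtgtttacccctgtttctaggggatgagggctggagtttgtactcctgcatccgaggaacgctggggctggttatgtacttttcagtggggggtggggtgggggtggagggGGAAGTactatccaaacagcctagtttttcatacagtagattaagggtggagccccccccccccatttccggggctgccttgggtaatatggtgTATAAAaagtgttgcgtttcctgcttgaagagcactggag
*Ceacam10*, chr7:24776954-24777203, plus strand: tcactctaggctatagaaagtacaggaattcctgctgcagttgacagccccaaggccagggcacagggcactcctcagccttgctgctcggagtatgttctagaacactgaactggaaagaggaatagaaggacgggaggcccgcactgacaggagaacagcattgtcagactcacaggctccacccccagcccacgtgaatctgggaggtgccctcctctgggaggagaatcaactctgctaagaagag
*S100a8*, chr3:90668821-90669070, plus strand: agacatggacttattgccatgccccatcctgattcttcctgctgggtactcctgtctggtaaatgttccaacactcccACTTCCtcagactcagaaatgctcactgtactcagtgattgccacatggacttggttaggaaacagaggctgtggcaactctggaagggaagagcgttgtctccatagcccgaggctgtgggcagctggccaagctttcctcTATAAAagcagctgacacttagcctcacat
*S100a9*, chr3:90695722-90695971, minus strand: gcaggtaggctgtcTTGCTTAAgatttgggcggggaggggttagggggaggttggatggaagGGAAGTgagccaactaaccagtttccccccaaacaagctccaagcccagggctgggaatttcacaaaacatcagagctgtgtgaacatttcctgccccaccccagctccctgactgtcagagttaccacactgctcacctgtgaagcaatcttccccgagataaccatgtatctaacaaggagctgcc

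The first letter of GGAAGT, or of its reverse complement, stood 134 bases before the start of *Cd177*, 172 before that of *S100a8* and 188 before that of *S100a9*, and *Ceacam10* held no match to any of the 3 patterns in this window. A TATAAA lay 40 bases before the start of *Cd177* and 30 before that of *S100a8*, and a TTGCNNAA lay 236 bases before that of *S100a9*. Of the 9 genes, 7 held GGAAGT (all but *Csf3r* and *Itgam*), 1 held TTGCNNAA and 2 held TATAAA. In windows of the same length before the starts of the 32851 RefSeq promoters searched, 19.7% held GGAAGT, 9.56% TTGCNNAA and 12.4% TATAAA. The promoters searched did not cover every chromosome. No 2 of the marked matches overlap in the sequences shown. A match is a run of letters and not a measured binding site, and GGAAGT stood before the highly expressed *Cd177* and before *Mpo* and *Elane*, at or near 0.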

How the data were processed

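RNA of the colon epithelium was sequenced by the authors with a strand-specific library kit and paired-end reads of 150 bases, 1 library per sample, and 6 samples were used here. The authors deposited 1 FPKM value per gene and sample (52550 mouse gene IDs). The unit is not named in the files and was taken from the methods and the values. The methods name TopHat, Cuffdiff and a human genome, whereas the submitters' processing notes name STAR 2.5, Cuffnorm, DESeq 1.22.1 and mm9. Gene IDs were matched to symbols (52403 with a symbol, 147 without) and, by ID, to GENCODE coordinates on GRCm38. The files give no coordinates, so the positions given here rest on the gene IDs alone. Which genome build and annotation made the values cannot be told from the files. The labels give the genotype in the titles. The genotype field of Zfp90ΔIEC replicates 2 and 3 names another gene number, and the titles were followed. The labels' DSS concentration and ages were used, and the methods give slightly other ones.

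From the deposited FPKM, log2(FPKM + 1) was compared between the genotypes with limma 3.58.1 (intensity trend, R 4.3.3, no covariates) over the 11564 genes that reached 1 FPKM in 3 or more samples, with Benjamini-Hochberg adjustment and a threshold of 0.05. Genes below the filter take their statistics from the same fit over the 27805 genes above 0. A pseudocount of 1 makes log2 fold changes of low genes smaller than their ratios of means. In simulated data, 179 of 200 genes changed 2-fold were recovered among 11564 genes with 8 false calls, and 160 of 200 among 27805 genes with 14. The change was made on the scale of log2(FPKM + 1), in genes with a mean above 1 on that scale. The recovery of changes in lower genes, which take their statistics from the fit without the filter, was not tested. Shared 31-base words were counted in the GENCODE transcripts. The depth was estimated from genes of a single transcript of 1500 to 6000 bases. FPKM hold no counts, and values listed at 0 cannot be told from low ones. Other steps ran in Python 3.11.15 (numpy 2.4.6, pandas 2.3.3, figures with matplotlib 3.10.9).

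The 9 genes, the gene lists and the tests were chosen with earlier results of these data known. Genes named are the 9, the genes of the lists past the threshold in either fit, the 3 highest of each list by mean FPKM and the 5 genes most like *Cd177*. The result of a gene that this rule names is not reported here. Defining markers of a cell type, genes at 0, genes that overlap a named gene and neighbours were named after their values were seen. The count of genes without overlap, among those with a mean of at least 0.1 FPKM, was also set after the values were seen. That mean is over both genotypes, so a low gene can enter such a count through the genotype in which it is higher. The alternatives were a pseudocount of 0.1, other filters, quantile normalization, median ratio scaling, the replicate number as a block, leaving out each sample and other denominators.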

Additional observations from a re-analysis of the deposited data

How the results depend on the processing

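The *Cd177* log2 fold change stayed between -1.42 and -1.07 in 12 alternatives. The number of genes called between the genotypes was 23, and was 13 with a pseudocount of 0.1, 15 without the filter, and 10 to 21 with a sample left out (10 without Zfp90fl/fl replicate 2). The replicate numbers 1 to 3 are shared by both genotypes in the labels. The deviations of same-numbered samples correlated across genes at 0.194, 0.110 and 0.0782. Whether same-numbered samples shared more than a number was not tested. With the replicate block 47 genes passed, and in the fit without the filter 0 of 27805 did (limma, 2833 at an unadjusted p under 0.05), so that 0 of the 40 other neutrophil genes passed with the replicate block. The count for these 40 genes was 1 (*Ptafr*), and 0 with the filter, with a pseudocount of 0.1 and with any sample left out. The number of them lower without overlap was 9, and 18 when genes below 0.1 FPKM were counted. The log2 difference between genotypes of the ratio of *Cd177* to the other 8 genes was 2.65, and 2.40 to 2.78 with a sample left out. It was 1.70 without *S100a8* and *S100a9* in the sum, 5.48 with the median of the 8 genes, 1.39 with *Gm49368* added to *Itgam*, and reversed to -1.06 with the sum of *Csf3r*, *Cxcr2*, *Mpo*, *Elane* and *Ly6g*. By construction these denominators hold other genes. The cause of the other shifts was not tested. *S100a8*, *S100a9*, *Csf3r*, *Cxcr2*, *Itgam* and *Trem1* had a log2 fold change below 0 in 10 of 10 alternatives each. Each was lower in every Zfp90ΔIEC sample than in any Zfp90fl/fl sample. Leaving out a sample, the block or another pseudocount could therefore not turn the sign. The 5 genes most like *Cd177* were the same with quantile normalization, and 4 of the 5 with a pseudocount of 0.1, where *Kctd12* took the place of *Irf1*. Depth limits *S100a8*, *S100a9*, *Csf3r*, *Cxcr2*, *Mpo*, *Elane* and *Trem1*, which held at most about 27.1 fragments in a sample (*Csf3r*).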

Other observations

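*Lcn2*, which encodes lipocalin 2, a protein of neutrophil granules that inflamed epithelium is also known to express, was in 2 of the lists and was named after its values were seen. It was at 0.0416, 0.201 and 0.135 FPKM in the Zfp90fl/fl samples and was listed at 0, 0.0113 and 0 FPKM in the Zfp90ΔIEC samples, while *Reg3b* in the same Zfp90fl/fl samples was at 461 FPKM or more. The genotypes did not overlap, and *Lcn2* did not pass the test (limma log2 fold change -0.16 with standard error 0.0513 and adjusted p = 0.371, without the filter). The serum amyloid A genes were as unlike each other. *Saa1* was at 45.5 to 154 FPKM over the 6 samples, *Saa3* at 0.249 to 2.42 FPKM and *Saa2* at 0.0386 to 0.169 FPKM. The genotypes overlapped for *Saa1*, and *Saa3* was lower in every Zfp90ΔIEC sample. *Saa2* was higher in every Zfp90ΔIEC sample, with means of 0.0391 and 0.0872 FPKM, and did not pass (adjusted p = 0.742 from limma). With a mean below 0.1 FPKM, *Saa2* was not among the genes counted for overlap above. *Saa1* and *Saa2* are close relatives, and how fragments were divided between them was not tested.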
